A study of Mus musculus with 2 samples.

Results

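The alpha-beta T cells of the mouse aortic arch were taken from single-cell RNA libraries of Apoe-/- mice, which lack apolipoprotein E and develop arterial plaques. They comprised 255 of 8155 kept cells in all, 234 of 5416 in the normal diet (ND) library and 21 of 2739 in the high-fat, high-cholesterol diet (HFD) library. Both groups were male C57BL/6 mice of 16 weeks and both lacked Apoe, so that diet was the labelled difference. Each diet was measured in 1 library of 2 pooled aortas, digested with an enzyme mix made for lung, and the values of single animals cannot be told apart. There was therefore no replicate check and no test between diets, and the intervals given are exact 95% intervals that cover counting error only.

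Members were chosen by their transcripts. A kept cell had at least 200 genes, at least 200 unique molecular identifiers (UMIs, one per captured RNA molecule) and at most 30% of its UMIs from mitochondrial genes. A member also had a UMI of Cd3d, Cd3e or Cd3g and a UMI of Trac, Trbc1 or Trbc2, and no UMI of Cd163l1, Dntt, Rag1 or the B cell gene Cd79a. Barcodes with both endothelial genes Pecam1 and Cdh5, or with complement genes C1qa, C1qb and C1qc at 0.2% of UMIs or above, were left out. The Cd3 and receptor genes describe the choice and are no finding.

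Alpha-beta T cells recognise peptides on MHC molecules through a receptor of 1 alpha and 1 beta chain, which signals through the CD3 chains. CD4 helper cells read MHC class II and act mainly through cytokines and CD40 ligand, while CD8 cells read MHC class I and kill with granzymes. In the atherosclerotic aorta, T cells are found in plaques and in the adventitia, and naive cells that express Ccr7 and Tcf7 are usually told from effector cells that express Ccl5 and granzymes.

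The gate narrowed in steps. In ND, 416 kept cells had a Cd3 UMI, 368 also had a receptor UMI, 313 had no Cd163l1, 283 no Dntt or Rag1, 280 no Cd79a, and 238 were not positive for both endothelial genes. In HFD the same steps left 87, 75, 71, 43, 41 and 23 cells. The members rested on few receptor molecules: the median was 4 Cd3 and 5 receptor UMIs a cell in ND, and 7 and 6 in HFD. At the edge of the gate, 5 ND members and 1 HFD member had a single UMI of each kind. Just outside it, 43 ND and 13 HFD cells had a receptor UMI but no Cd3, and 10 and 1 had Cd3 but no receptor UMI. The highest complement share of a member was 0.128% in ND and 0.130% in HFD, and the lowest among cells left out for it was 0.217% and 0.876%. The highest mitochondrial share of a member was 29.9% in ND and 29.4% in HFD, and the lowest of a barcode left out for it was 30.0% and 31.2%.

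ND members held a median of 2640 UMIs and 983 genes, with 908 to 19253 UMIs a cell. HFD members held 4934 UMIs and 1661 genes, with 3809 to 12550 UMIs, so the HFD cells were deeper. Summed over members, the libraries gave 722419 and 120677 UMIs. Of the barcode sequences, 39 were present in both libraries, 1 was a kept cell in both and 0 were members in both. Scrublet, a doublet caller, marked 0 ND cells and 1 HFD cell, and its upper 6% of scores held 8 ND and 2 HFD members.

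The label was borne out by genes the gate did not use. Cd28, the costimulatory receptor of T cells (chromosome 1, 60716800 to 60773359, plus strand, GENCODE M21 on GRCm38), was found in 160 of 234 ND members (68.4%) and 16 of 21 HFD members (76.2%). It was found in 0.515% of 583 ND B cells (median 3697 UMIs) and 0.473% of 2327 ND endothelial cells (median 4165 UMIs), where it should be absent. Thinned to 1000 UMIs a cell, which left out 1 ND and 0 HFD members, the Cd28 shares were 40.3% and 19.0%. Thy1, a surface protein of mouse T cells, was found in 138 and 16 members, the kinase gene Lck in 106 and 12, and the adaptor Lat in 139 and 13. Of the genes the gate did use, Cd3d (chromosome 9, 44981786 to 44987339, plus strand) was in 184 ND members (78.6%) and 18 HFD members (85.7%). The B and endothelial cells compared here were chosen to have no Cd3 UMI, so 0 of the 583 B cells held Cd3d by that choice. Trac (chromosome 14, 54220521 to 54224206, plus strand) was in 180 (76.9%) and 15 (71.4%), against 1.03% of ND B cells. Trbc2 (chromosome 6, 41546730 to 41548352, plus strand) was in 191 (81.6%) and 21 (100%), against 0.343% of ND B cells, but its reads are hard to separate from those of its near-identical neighbour Trbc1. Of 128 listed Trav genes, a UMI of any was found in 6 ND members and 1 HFD member, so the variable part of the receptor could not be followed.

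Alpha-beta T cells formed 4.32% of kept ND cells (3.79 to 4.90) and 0.767% of kept HFD cells (0.475 to 1.17). Among cells with a UMI of Ptprc, which encodes the leukocyte antigen CD45, they formed 14.0% in ND (12.3 to 15.8) and 2.70% in HFD (1.68 to 4.10). With each cell thinned to 1000 UMIs before the gate was applied, 3.01% of ND and 0.657% of HFD cells met it, with 63 ND and 0 HFD cells left out as shallower. The share was thus lower in HFD in all 3 of these counts.

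The 30% limit on mitochondrial UMIs removed very different numbers of T cells from the libraries. Barcodes that met every other part of the gate numbered 303 in ND and 275 in HFD, and the limit left out 69 of the former (22.8%, 18.2 to 27.9) and 254 of the latter (92.4%, 88.6 to 95.2). Over all barcodes with enough genes and UMIs it left out 29.8% in ND and 72.5% in HFD, and over B cells 11.5% and 72.6%. Without the limit, the gate held 3.93% of 7715 ND barcodes (3.50 to 4.39) and 2.76% of 9954 HFD barcodes (2.45 to 3.10). Among barcodes with a Ptprc UMI the values were 14.7% and 12.5%. The difference in the share of T cells was therefore smaller by far when the limit was dropped.

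The gated share peaked at different mitochondrial content in the libraries. In ND it was 7.76% of barcodes at 20 to 25%, 7.82% at 30 to 35%, and 2% at 40 to 50%. In HFD it was 0.977% at 20 to 25%, 2.27% at 30 to 35%, 4.63% at 40 to 50% and 4.80% at 50 to 60%, and these last bins held 86 and 75 gated barcodes. The limit of 30% thus cut the ND T cells near their peak and the HFD T cells below it. With a limit of 40% the shares were 4.59% in ND and 1.62% in HFD, with 50% they were 4.44% and 2.53%, and with 60% they were 4.24% and 2.99%.

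**Figure D1:**
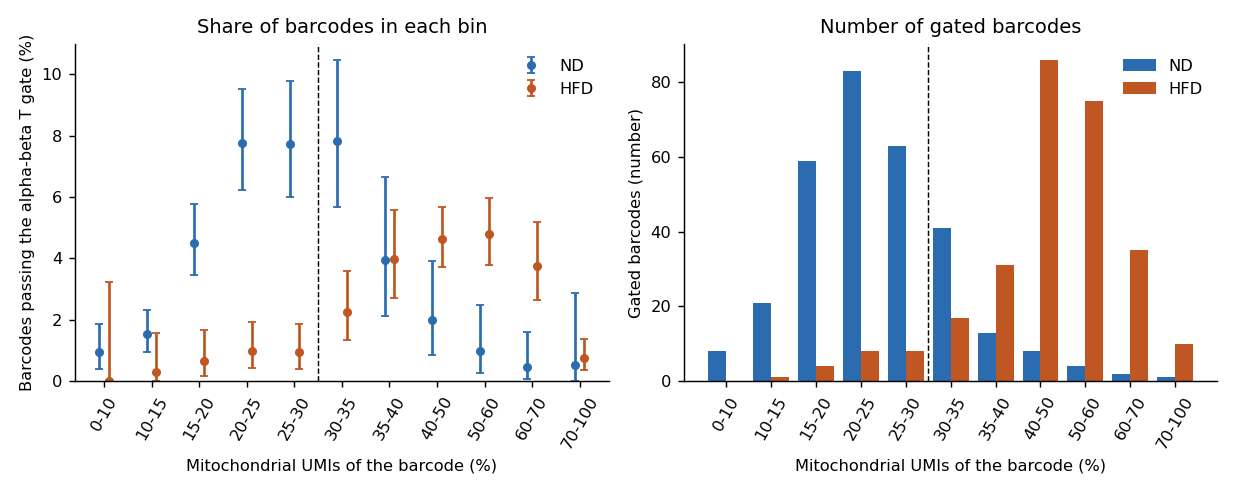
Left, percent of barcodes in each bin of mitochondrial share (x axis, percent of UMIs) that met the T cell gate, ND in blue and HFD in orange, with exact 95% intervals. Right, bars of the number of gated barcodes per bin. The dashed line is the 30% limit: 69 ND and 254 HFD gated barcodes lie to its right, and the HFD share is highest at 50 to 60%.

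The barcodes over the limit carried RNA of leukocytes. A Ptprc UMI was found in 84.1% of the 69 ND barcodes and 81.5% of the 254 HFD barcodes, against 91.5% and 100% of members. Their medians were 2129 UMIs, 790 genes and 34.2% mitochondrial UMIs in ND, and 2405 UMIs, 727.5 genes and 49.4% in HFD. Apart from mitochondrial genes they held a median of 1384 UMIs in ND and 1192 in HFD, compared with 2018 and 3733 in members. A high mitochondrial share is commonly read as a sign of a damaged cell, and whether diet or handling moved it was not tested. Because of this, the values of T cells without the limit are given beside those of the members, in CPM (a UMI count as a share of all UMIs, scaled to the same total in each group) without mitochondrial genes. That alternative was chosen after the data were seen.

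Members were split by their coreceptor, the protein that binds the MHC molecule together with the receptor. Cd4 (chromosome 6, 124864692 to 124888221, minus strand) without Cd8a or Cd8b1 was found in 61 ND members (26.1%, 20.6 to 32.2) and 2 HFD members (9.52%, 1.17 to 30.4). Cd8a (chromosome 6, 71373427 to 71379173, plus strand) or Cd8b1 without Cd4 was found in 68 ND members (29.1%, 23.3 to 35.3) and 13 HFD members (61.9%, 38.4 to 81.9). Both coreceptors were found in 2 ND members (0.855%) and 0 HFD members, which allows a share of up to 16.1% by the exact interval. Neither was found in 103 ND members (44.0%) and 6 HFD members (28.6%). Their median depth in ND, 2508 UMIs, was close to the 2630 of Cd4 and the 2965 of Cd8 cells. Cd4 UMIs were found in 0.816% of ND and 1.21% of HFD endothelial cells, and Cd8a in 0.043% and Cd8b1 in 0.129% of ND endothelial cells.

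The Cd8 share was higher in HFD than in ND on both sides of the limit. Over the limit, 15 of 69 ND barcodes (21.7%, 12.7 to 33.3) and 94 of 254 HFD barcodes (37.0%, 31.1 to 43.3) were in the Cd8 gate. These intervals overlapped. In the Cd4 gate were 12 (17.4%) and 30 (11.8%), and both coreceptors were found in 4 (5.80%) and 15 (5.91%). Without a limit, Cd8 cells were 27.4% of T cells in ND (22.4 to 32.8) and 38.9% in HFD (33.1 to 44.9). Cd4 cells were 24.1% (19.4 to 29.3) and 11.6% (8.10 to 16.0). With these barcodes held fixed and thinned to 1000 UMIs, which left out 2 ND and 0 HFD barcodes, the Cd8 shares without a limit were 15.3% and 23.6%, and the Cd4 shares 12.3% and 6.18%. The cells without a coreceptor UMI were 46.5% and 44% of these T cells.

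**Figure D2:**
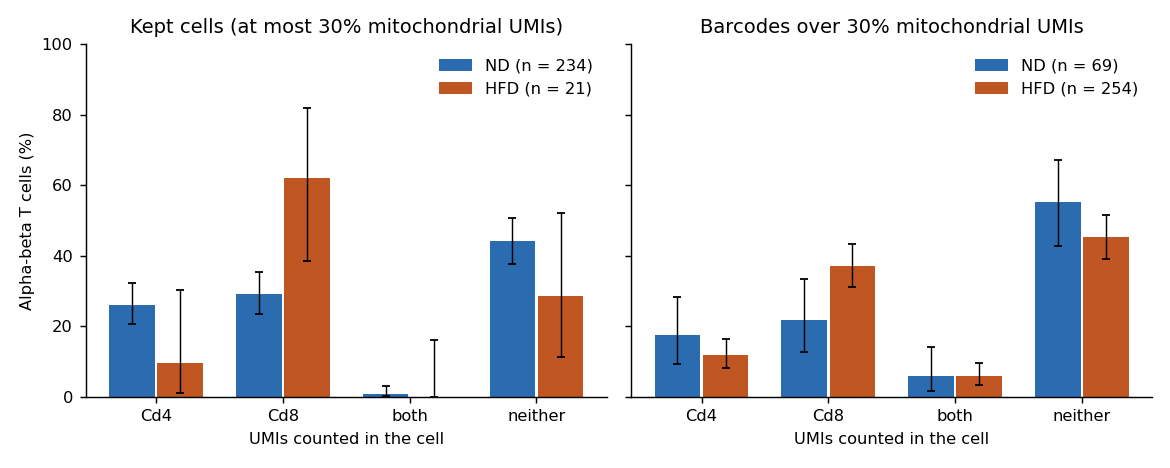
Percent of alpha-beta T cells in each coreceptor gate (y axis), as bars from 0 with exact 95% intervals, ND in blue and HFD in orange; left, kept cells (234 ND, 21 HFD), right, barcodes over the 30% mitochondrial limit (69 ND, 254 HFD). The Cd8 bar is higher in HFD in both panels, 61.9% against 29.1% on the left and 37.0% against 21.7% on the right.

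The 21 HFD members were a mixed set. A cell was called cycling with at least 2 UMIs of Mki67, Top2a or Birc5, genes of dividing cells. Cycling cells numbered 9 of 234 in ND (3.85%, 1.77 to 7.18) and 8 of 21 in HFD (38.1%, 18.1 to 61.6). Of these 8, 2 were in the Cd4 gate, which has 2 cells, and 6 in the Cd8 gate, which has 13. Over the mitochondrial limit cycling barcodes were 1 of 69 in ND (1.45%) and 4 of 254 in HFD (1.57%, 0.431 to 3.98), so the high share was found in the kept HFD cells and not in the more numerous barcodes over the limit. This rule counts raw UMIs. Without mitochondrial genes the median depth was 3733 UMIs in HFD members, 2018 in ND members and 1192 in HFD barcodes over the limit. As a share, proliferation genes were over 1% of UMIs in 6 HFD members (28.6%), 8 ND members (3.42%) and 2 HFD barcodes over the limit (0.787%).

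RNA typical of other cell types was also found in single members. Counted over 94 genes of B cells, macrophages, endothelium, fibroblasts, red cells and the like, it was over 2% of UMIs in 9 HFD and 12 ND members. In HFD the shares of these 9 cells were 41.0%, 24.3%, 21.8%, 16.4%, 6.34%, 5.49%, 4.30%, 2.83% and 2.29%, and the next cell was at 1.86%. Haemoglobin genes gave 1997, 1393, 924 and 744 UMIs in 4 HFD members and 8 or fewer in each of the other 17. MHC class II genes, which mouse T cells normally lack, gave 423, 265, 85 and 22 UMIs in 4 HFD members. In ND, haemoglobin genes gave 3310, 1564 and 1001 UMIs in 3 cells, and class II genes 454 and 327 in the highest 2. Counting either mark, 16 of 21 HFD members (76.2%, 52.8 to 91.8) and 20 of 234 ND members (8.55%, 5.30 to 12.9) were cycling or carried other-type RNA, compared with 9 of 254 HFD barcodes (3.54%, 1.63 to 6.62) over the limit. Only 5 HFD members were neither.

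**Figure D3:**
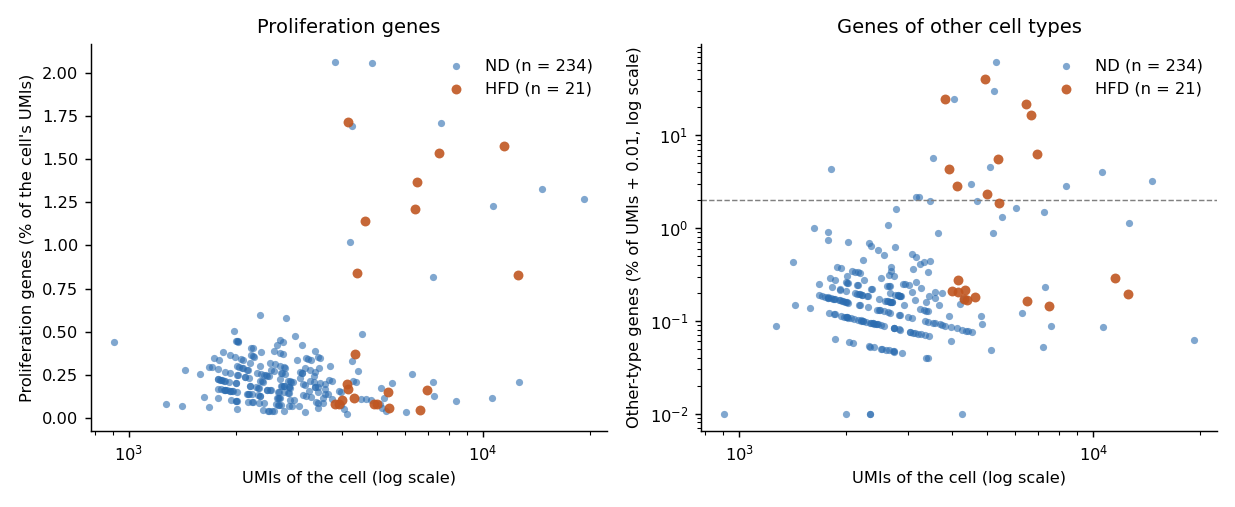
Each point is 1 alpha-beta T cell, ND in blue and HFD in orange, placed by its UMIs (x axis, log scale). Left, proliferation genes as percent of UMIs; right, genes of other cell types as percent of UMIs plus 0.01 (log scale), with a dashed line at 2%. In the HFD library 8 of 21 cells were cycling and 9 lie above the 2% line, with 1 cell in both sets.

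Between diets, members were compared by CPM over all their UMIs, for the 1616 genes with at least 60 UMIs together and 4 in each library. At least 2-fold higher in HFD were 70 genes (4.33% of those tested), and at least 2-fold lower were 136 (8.42%), with a median log2 ratio of -0.11 over all genes. Median of ratios scaling, which moved all log2 ratios down by 0.199, gave 46 higher and 216 lower genes. The genes were first read for the effector programme of T cells. Of 27 effector and cytotoxic genes 12 had enough UMIs, of which 4 were past 2-fold higher and 0 lower, with a median of 0.38.

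Granzymes are the proteases that CD8 and natural killer cells release into target cells. Gzmb (chromosome 14, 56258838 to 56262260, minus strand) had 122 CPM in ND and 522 in HFD, a log2 ratio of 2.10 (1.61 to 2.58), and was found in 25 ND and 11 HFD members. Gzma (chromosome 13, 113093825 to 113100981, minus strand) had 275 and 978 CPM (1.83, 1.49 to 2.16) in 18 and 7 cells. The top HFD cell gave 39.7% of the Gzmb UMIs, and a different HFD cell gave 37.3% of the Gzma UMIs. These cells held 89 and 181 UMIs of proliferation genes, and the former also gave 41 of the 118 HFD Gzma UMIs. In ND the top cell gave 20.5% of the Gzmb and 24.6% of the Gzma UMIs. Nkg7, a protein of cytotoxic granules (chromosome 7, 43437073 to 43438249, plus strand), had 489 and 986 CPM (1.01, 0.70 to 1.32) in 109 and 17 cells. Ccl5, a chemokine of effector and memory T cells (chromosome 11, 83525778 to 83530518, minus strand), had 3850 and 5105 CPM (0.41, 0.28 to 0.53). In cells that should lack these genes, ND B cells held a Gzmb UMI in 0, an Nkg7 UMI in 0 and a Ccl5 UMI in 0.858%, and ND endothelial cells in 0.430%, 0.816% and 1.85%.

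Some effector genes were past 2-fold higher in HFD also without the mitochondrial limit, where 303 ND and 275 HFD T cells were compared. Over all 2760 genes tested there, 43 were past 2-fold higher in HFD (1.56%) and 28 past 2-fold lower (1.01%). Among the 22 effector genes with enough UMIs 4 were higher and 0 lower, with a median log2 ratio of 0.78 against 0.07 for all genes. The rise was not particular to effector genes. Past 2-fold higher were also 5 of 6 endothelial (median 1.71), 2 of 4 erythroid (1.05) and 5 of 9 natural killer genes (1.37). Of 5 fibroblast and 5 macrophage genes 0 were higher, and of 2 neutrophil genes 2 were lower. Gzmb stood at 151 CPM in ND and 620 in HFD (2.04, 1.70 to 2.38), in 33 ND cells (10.9%) and 71 HFD cells (25.8%). Gzma stood at 343 and 904 CPM (1.40, 1.16 to 1.64), in 23 (7.59%) and 44 cells (16%). Ccl5 stood at 4916 and 10593 CPM (1.11, 1.04 to 1.17), in 137 (45.2%) and 157 cells (57.1%). Klre1, a receptor of natural killer and some CD8 cells, stood at 57.7 and 207 CPM (1.84, 1.28 to 2.42), in 21 (6.93%) and 49 cells (17.8%).

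Genes of naive and central memory cells were read next. Of 18 listed, 13 had enough UMIs among members, with 0 past 2-fold higher, 5 lower and a median log2 ratio of -0.83. Il7r, the receptor that keeps naive and memory cells alive (chromosome 15, 9505788 to 9530176, minus strand), had 453 CPM in ND and 99.4 in HFD (-2.19, -3.15 to -1.36), in 122 and 5 cells. Tcf7, a transcription factor of naive and memory cells (chromosome 11, 52252371 to 52283014, minus strand), had 266 and 58.0 CPM (-2.20, -3.53 to -1.13), in 105 and 4 cells. Klf2, which keeps T cells in circulation through S1pr1, had 426 and 240 CPM (-0.83, -1.43 to -0.28).

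Without the limit the naive list had 0 of 16 genes past 2-fold higher and 1 lower, with a median of -0.42. Il7r remained lower in HFD at a log2 ratio of -0.92 (-1.23 to -0.63), and Klf2 at -0.88, whereas Tcf7 moved from -2.20 to -0.33. Ccr7, which guides naive cells to lymph nodes, was at -1.02 among members and -0.49 without the limit. Lef1, the partner of Tcf7, was at -1.57 and -0.17, and Satb1, a chromatin organiser of T cells, at -1.48 and 0.35.

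Genes of the T cell receptor pathway were read beside all tested genes, of which 4.33% were past 2-fold higher among members and 8.42% lower. Of 24 signalling genes 15 had enough UMIs among members, with 0 past 2-fold higher and 2 lower (median -0.35), and of 18 without the limit 0 were past 2-fold either way (median 0.12). Lck, which starts the signal, was at a log2 ratio of -0.28 among members and 0.08 without the limit, and Zap70, the kinase it activates, at -0.04 and 0.52. Cd247, the zeta chain of the receptor complex, was at -1.30 and 0.18. Among 18 surface and costimulation genes 1 was past 2-fold higher and 3 lower of 11 tested. Cd28 was at -0.97 and -0.42, and Cd27, a costimulatory receptor lost on effector cells, at -1.47 and 0.10. Cd8b1, which the gates used, was at 1.21 and 1.19.

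Few regulatory, helper or checkpoint genes could be compared. Foxp3, the factor of regulatory T cells, was found in 7 of 234 ND members (2.99%, 1.21 to 6.07) and 1 of 21 HFD members. Without the limit it was in 8 of 303 (2.64%) and 7 of 275 (2.55%), and 7 of the cells in each library also had Ctla4. Of 15 regulatory genes 3 were tested with 0 higher and 1 lower, of 13 checkpoint genes 4 with 0 and 2, and of 19 helper genes 2 with 0 and 2. Il4, Il5 and Il13, the type 2 cytokines, had 0 UMIs in both libraries. Ctla4, which dampens costimulation, was at a log2 ratio of -1.43 among members and -0.34 without the limit. Cd40lg, the ligand by which helper cells activate B cells and macrophages, had 51 UMIs in ND members and 0 in HFD members, of whom 2 were in the Cd4 gate.

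Receptors for chemokines and cytokines were mixed. In the trafficking list 1 of 16 tested genes was past 2-fold higher and 2 lower (median -0.16). Ccr2, the receptor for Ccl2, had 83.1 CPM in ND and 166 in HFD, and was at 0.68 without the limit. Ccr9, known for homing to the gut and thymus, was at 1.77 without the limit, with 15 ND and 34 HFD cells. Of 27 cytokine receptor and signalling genes 16 were tested, with 0 higher and 4 lower (median -0.68), and without the limit 22 were tested with 0 either way (median -0.08). Of 16 cytokine and chemokine genes 4 were tested among members with 0 either way, and 8 without the limit with 3 higher and 1 lower. The gene lower there was Tnfsf8, the CD30 ligand, with 64 UMIs in 29 ND cells and 5 UMIs in 5 HFD cells (-2.98). Ifng, the type 1 effector cytokine, had 58 UMIs in ND members and 3 in HFD members, but 71 and 81 without the limit (0.89).

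In the lists of immediate early, heat shock, interferon-induced, MHC class I and residency genes, 0 genes were past 2-fold higher in HFD members. The share over all tested genes was itself low, 4.33% higher and 8.42% lower. Of 24 immediate early genes 21 were tested among members, with 0 higher and 2 lower (median -0.42), and without the limit 0 of 21 were past 2-fold (median -0.20). Junb, an AP-1 subunit, had 3808 CPM in ND and 1715 in HFD (-1.15, -1.36 to -0.95) and was at -0.20 without the limit. Nr4a3, induced by receptor signals, had 610 and 199 CPM (-1.62) and was at -0.63. Of 7 heat shock genes tested 0 were higher and 1 lower (median -0.07). Of 8 interferon-induced genes 0 were higher and 1 lower (median 0.09). All 13 MHC class I genes tested lay within 2-fold (median -0.24). Among 12 residency genes 6 were tested with 0 higher and 3 lower (median -1.29), whereas without the limit 9 were tested with 1 either way (median 0.04).

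Lipid handling genes were sparse in T cells. Of 20 cholesterol genes 3 were tested among members with 0 past 2-fold, and 6 without the limit with 0 higher and 2 lower. Insig1, a brake on sterol synthesis that is itself induced when sterols are low, was at -1.32. Abca1, the cholesterol exporter, was under the minimum of 60 UMIs, with 11 UMIs in ND and 42 in HFD T cells without the limit (2.63, 1.65 to 3.74), and 10 in the members of each.

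Some division genes were past 2-fold higher among the HFD members. Of 15 listed 6 were tested, with 3 higher and 0 lower (median 1.05), and without the limit 7 were tested with 0 either way (median 0.22). Mki67 had 51.2 CPM in ND and 166 in HFD (1.69), in 12 and 9 cells. Top2a, which untangles replicated DNA, had 91.4 and 307 CPM (1.75). Pclaf, a partner of the replication clamp, had 78.9 and 406 CPM (2.36, 1.78 to 2.94), in 9 cells of each library. Without the limit Mki67 was at 0.22, Top2a at 0.34 and Pclaf at 0.77. Without the 6% highest doublet scores the list median was 0.50 and Pclaf was at 1.499.

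The 12 genes highest in HFD by the nearer bound of the interval were mostly genes of other cells. They comprised the class II genes H2-Ab1, H2-Aa, H2-Eb1 and Cd74, the haemoglobin genes Hbb-bs, Hbb-bt, Hba-a1 and Hba-a2, whose copies share reads, the endothelial or lipid uptake genes Cldn5, Fabp4 and Lpl, and Pclaf. H2-Ab1 had 201 CPM in ND and 1707 in HFD (3.09, 2.77 to 3.40), and 1 cell gave 54.5% of its ND and 52.4% of its HFD UMIs. Fabp4 had 462 and 2337 CPM (2.34, 2.10 to 2.57), with 72.3% of the HFD UMIs from 1 cell. Cldn5 had 48.4 and 339.8 CPM (2.81, 2.12 to 3.50), with 75.6% from 1 cell. Hbb-bs had 4554 and 24595 CPM (2.43, 2.36 to 2.51), with 35.7% from 1 cell.

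Without the members with over 2% other-type UMIs, which left 222 ND and 12 HFD cells, Cldn5 was at -0.55 and Fabp4 at -1.99, both on the lower side. Hba-a1 was at 0.28 (from 2.21), Lpl at 0.74 (from 2.58) and Hba-a2 at 1.74 (from 2.46), and 8 of the 12 genes were still past 2-fold higher. Hbb-bs was at 2.71, Cd74 at 2.91 and H2-Ab1 at 4.42, the class II values resting on the HFD cell with 85 class II UMIs. A Hbb-bs UMI was in 23.1% of ND and 95.2% of HFD members, in 26.8% of ND and 92.3% of HFD B cells, and in 30.0% of ND and 82.4% of HFD endothelial cells. Fabp4 was likewise in 46.6% of ND and 61.9% of HFD members, in 49.6% and 96.2% of B cells, and in 94.2% and 97.7% of endothelial cells. B cells should lack both genes. Summed over members, the erythroid list stood at 8290 CPM in ND and 42568 in HFD, the endothelial list at 900 and 4143, and the B cell list, which holds class II genes, at 1160 and 5701, while Pax5, Iglc2 and Fcmr were at 0 in both. Of the tested genes, 4 of 4 erythroid, 3 of 4 endothelial and 3 of 4 B cell genes were past 2-fold higher in HFD members, as were 0 of 4 macrophage and 1 of 5 fibroblast genes. Cells with over 1% of UMIs from a list numbered 3 in ND and 4 in HFD for erythroid, 3 and 2 for endothelial, 3 and 3 for B cell and 6 and 2 for fibroblast genes. Of 5 natural killer genes tested, several of which CD8 cells share, 3 were higher and 1 lower. Of 4 thymocyte genes 1 was higher, at a log2 ratio of 1.21, the same value as Cd8b1, and 0 lower. Without the mitochondrial limit 3 of 10 thymocyte genes were past 2-fold higher and 0 lower (median 0.84), against 1.56% higher of all genes tested there. The part of RNA typical of other cell types in the differences between diets was not tested.

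**Figure D4:**
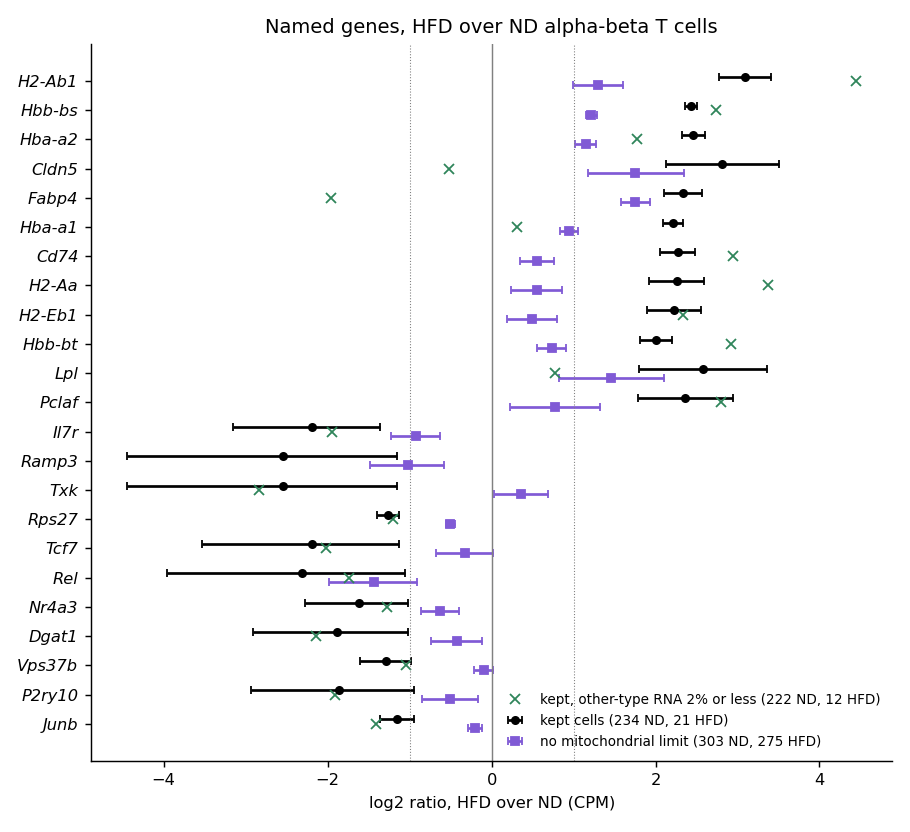
Log2 ratio of HFD over ND (x axis) for the 12 genes highest and 11 of the 12 lowest in HFD, with exact 95% intervals; dotted lines mark 2-fold. Black, kept members (234 ND, 21 HFD); purple, without the mitochondrial limit (303, 275); green crosses without intervals, kept members with at most 2% other-type UMIs (222, 12); purple and green are in CPM without mitochondrial genes. Cldn5 and Fabp4 lie on opposite sides in black and green, and Txk in black and purple.

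The 12 genes lowest in HFD by the same rule included Il7r, Tcf7, Txk, Rel, Nr4a3, Junb, P2ry10, Ramp3, Dgat1, Vps37b and Rps27. Txk, a kinase of the receptor pathway, had 194 CPM in ND and 33.1 in HFD (-2.55, -4.44 to -1.16), but without the limit it was at 0.36 (0.03 to 0.69). Rel, an NF-kappaB subunit of activated lymphocytes, had 206 and 41.4 CPM (-2.32) and was at -1.43 without the limit. Of the 12 lower genes 2 remained past 2-fold without the limit, Rel and Ramp3, and of the 12 higher genes 6 did.

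The Cd8 and Cd4 gates of the ND library were compared next. Over the 772 genes with enough UMIs in ND, 17 were at least 2-fold higher in the 68 Cd8 cells (2.2%) and 41 at least 2-fold higher in the 61 Cd4 cells (5.31%). This comparison within ND was chosen after the data were seen, because the HFD library had 2 kept Cd4 cells. The largest ratios among genes with enough UMIs were those of genes usually ascribed to other cell types. On the Cd8 side Hbb-bs was at 6.74, Hba-a2 at 6.65 and Hba-a1 at 5.603, each with 60.4% to 63.0% of its Cd8 UMIs from 1 cell, and the fibroblast genes Pi16 (3.15) and Igfbp5 (2.67) had 93.3% and 97.4% from 1 cell. On the Cd4 side they were Cbr2 (-4.79), with 100% of its Cd4 UMIs from 1 cell, Mgp (-4.52), with 37.9%, and Cd74 (-4.21), with 89.8%. Ccl5 had 8940 CPM in Cd8 and 969 in Cd4 cells (3.21, 2.99 to 3.42), in 57 Cd8 cells (83.8%) and 20 Cd4 cells (32.8%). Nkg7 had 1012 and 193 CPM (2.39), in 58 and 15 cells. Klrd1, a natural killer receptor also carried by CD8 cells, had 68 and 3 UMIs, in 35 and 2 cells. Gzma had 161 UMIs in 11 Cd8 cells and 0 in Cd4 cells, at least 51.0-fold higher. Eomes, a factor of memory CD8 cells, had 33 and 4 UMIs (2.97).

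Helper genes were among those higher in Cd4 cells. Maf, a factor of helper cells, had 444 CPM in Cd4 and 77.9 in Cd8 cells (-2.51 for Cd8 over Cd4), in 38 and 9 cells. Cd40lg had 21 UMIs in Cd4 and 0 in Cd8 cells, at least 7.37-fold higher in Cd4. Tnfrsf4, which encodes the receptor OX40, had 28 and 0 UMIs, at least 9.83-fold higher, and Tnfsf8 24 and 0, at least 8.42-fold higher. Icos, a costimulatory receptor, was at -1.40, Ctla4 at -1.10 and Cd5, a brake on receptor signals, at -1.38. Of 21 immediate early genes tested 0 were past 2-fold higher in Cd8 cells and 6 lower (median -0.41 against -0.04 for all genes). Among the lower were Fos (-1.80) and Egr1 (-1.79), with 33.3% and 36.2% of their Cd4 UMIs from 1 cell. An Egr1 UMI was found in 32.4% of Cd8 and 34.4% of Cd4 cells.

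Several of these differences were also found in the 107 Cd8 and 32 Cd4 barcodes of HFD without the limit. There Ccl5 was at 2.47, Nkg7 at 1.51, Klrd1 at 3.35, Ctsw, a protease of cytotoxic cells, at 3.33 (2.12 in ND), and Gzma had 220 UMIs in Cd8 and 0 in Cd4 barcodes. Maf was at -1.36, Icos at -1.96, Ctla4 at -1.70 and Cd5 at -2.32, and Cd40lg had 11 UMIs in Cd4 and 0 in Cd8 barcodes. Others did not carry over: Fos was at -0.11 and Egr1 at 0.26 there, and Ccr7, at 1.80 in ND, was at 0.17. By a rule of 2-fold in the kept cells of both libraries, 4 of 735 genes were higher in Cd8 cells (0.544%), namely Nkg7, Ctla2a, Thy1 and Runx3. Another 8 were lower (1.09%), namely Maf, Icos, Ctla4, Pim1, Samsn1, Eprs, Gadd45b and Sh3glb1. The HFD Cd4 side of this rule was only 2 cells, both cycling. The HFD interval held 0 for Thy1, Runx3, Icos, Ctla4, Samsn1, Eprs and Gadd45b. It did not for Nkg7, Ctla2a, Maf, Pim1 and Sh3glb1.

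**Figure D5:**
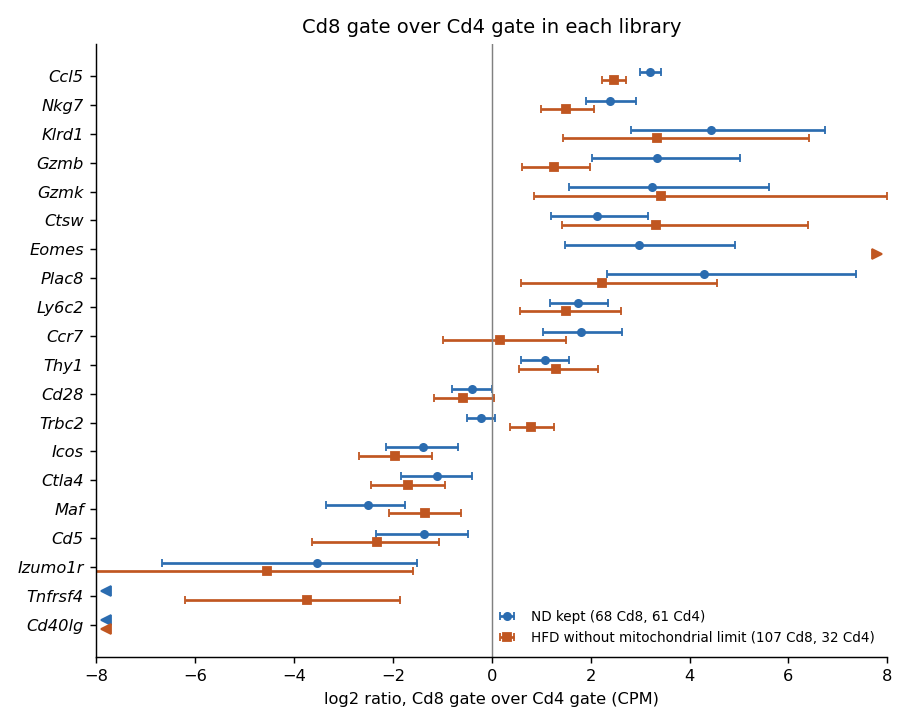
Log2 ratio of Cd8 over Cd4 gate cells (x axis) for 20 genes with exact 95% intervals, cut at 8 on either side. Blue circles, kept ND cells (68 Cd8, 61 Cd4); orange squares, HFD barcodes without the mitochondrial limit (107 Cd8, 32 Cd4); triangles at the edge mark genes with 0 UMIs in one gate. Ccl5, Nkg7 and Klrd1 lie on the Cd8 side and Maf, Icos and Ctla4 on the Cd4 side in both libraries.

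Genes picked after their values were seen were also compared between diets within the gates, with no limit set. The Cd8 gate then held 83 ND and 107 HFD barcodes. Gzmb stood at 311 CPM in ND and 888 in HFD, from 61 and 168 UMIs, and Ccl5 at 11956 and 14734 CPM. Klf2 stood at 673 and 201 CPM, Il7r at 418 and 169, S1pr1, the exit receptor, at 249.8 and 100.5, Ccr7 at 347 and 159, and Lef1 at 229 and 111. Tcf7 differed less, at 301 and 217 CPM. Within the Cd4 gate (73 and 32 barcodes), S100a4, a gene of memory and effector cells, stood at 598 CPM in ND and 1501 in HFD, Icos at 336 and 636, and Maf at 545 and 530. Gzmb stood at 26.7 and 371 CPM in the Cd4 gate, from 5 and 21 UMIs, of which 1 cycling HFD cell gave 12.

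Effector genes were also read cell by cell. A cell counted as effector with at least 3 UMIs of Ccl5 and Nkg7 together. In ND, 83.8% of the 68 Cd8 members were effector, against 29.5% of the 61 Cd4 members and 30.1% of those with neither coreceptor. In HFD, 100% of the 13 Cd8 members were effector. The rule counts raw UMIs, and these cells were deeper, with a median of 4934 UMIs against 2965 in ND Cd8 members. Over the limit, 80% of ND and 76.6% of HFD Cd8 barcodes were effector, as were 16.7% and 40% of Cd4 barcodes, so that Cd8 cells stood above Cd4 cells on both sides of the limit in ND.

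Alpha-beta T cells were also compared with other lymphocytes of the same libraries. Unconventional T cells, taken as Cd3 with Cd163l1, numbered 57 in ND and 2 in HFD. Of 783 genes tested, 1 was at least 2-fold higher in alpha-beta cells of both libraries (0.128%, Hbb-bs) and 50 lower (6.39%). Pdcd1, the PD-1 checkpoint, had 58.1 CPM in ND alpha-beta and 490 in unconventional T cells (-3.08, and -3.04 in HFD), and Cxcr6, a residency receptor, 54.0 and 380.5 (-2.82 and -3.95). Tmem176a had 60.9 and 825 CPM (-3.76 and -3.69). In ND, Ccl5 had 2781 UMIs in alpha-beta and 0 in unconventional T cells, Lck 174 and 0, and Cd28 339 and 5. Trdc, the constant gene of the delta chain, had 20.8 CPM in ND alpha-beta and 1451 in unconventional T cells.

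Natural killer cells, taken as Ncr1 or Klrb1c without Cd3, numbered 19 in ND and 5 in HFD. Of 1281 genes tested, 9 were at least 2-fold higher in alpha-beta T cells of both libraries (0.703%), and 40 lower (3.12%). Cd28 was among the higher genes, at 3.02 in ND (1.65 to 4.90). In HFD it was at 1.74 (-0.25 to 4.85), with only 2 UMIs in the natural killer cells. The lower genes included the receptor adaptors Tyrobp (-4.42 and -2.20) and Fcer1g (-4.53 and -2.29) and the factor Irf8 (-4.27 and -3.96). Ccl5 was shared, at 3850 CPM in ND alpha-beta T cells and 9412 in natural killer cells. Gzma stood at 275 and 3577 CPM, so the T cells were lower in it.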

How the data were processed

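Single cells of the aortic arch were measured by 10x Genomics droplet sequencing in 1 library per diet. The deposited matrices hold raw UMI counts per gene and barcode, which the authors made with Cell Ranger 3.0.1 per the file headers, on mm10 per the submitters' processing notes, for 31053 genes. Barcodes with at least 200 genes, 200 UMIs and at most 30% mitochondrial UMIs were kept. Free RNA was not subtracted, and Scrublet doublet scores from scanpy 1.11.5 were computed but removed no cell. The members, gene lists and rules were chosen with earlier results of these data known.

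Counts were summed over the members of each library and scaled to CPM. With 1 library per diet no test was made; ratios have exact conditional binomial 95% intervals, shares exact Clopper-Pearson intervals, and a gene past 2-fold was counted. A gene had enough UMIs with at least 60 together and 4 in each library, or 2 in each of 4 groups for comparisons within libraries. A fold against 0 UMIs was computed against 3 UMIs over the group. Named were list genes with at least 10 UMIs, the 12 genes in each direction with the interval bound farthest from 0 between diets, and for cell groups the genes with the largest ratio of 1 sign in both libraries (up to 10 or 8 in each direction). Genes within ND gates and without the mitochondrial limit were picked after their values were seen. Levels were not compared between genes, since 3' counts are not per length.

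On counts simulated for HFD against ND over 1601 genes, 153 of them changed, 96.3% of intervals held the true ratio and 3.18% of unchanged genes passed 2-fold. These counts were drawn as library totals with counting error only, so spread between cells was not simulated. The 3.18% is therefore no rate of false calls for the real members. Gene positions are from GENCODE M21 on GRCm38. Alternatives were other mitochondrial limits, scalings, UMI minimums, a stricter Cd3 gate, doublet scores and thinning. Python 3.11.15, numpy 2.4.6, scipy 1.17.1 and pandas 2.3.3 were used. Some genes of the lists are not reported here.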

Additional observations from a re-analysis of the deposited data

Results flagged for a closer look

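Barcodes over the 30% mitochondrial limit, which the comparison of members did not use, carried the T cell gate in 69 cases in ND and 254 in HFD. They formed 3.001% of the barcodes left out in ND and 3.52% in HFD. In HFD they outnumbered the 21 members, and no test was made with 1 library per diet.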

How the results depend on the processing

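No paired analysis was possible because each diet had 1 library, and for the same reason no replicate could be left out. The ND share of 4.32% was 2.49% with a limit of 20% mitochondrial UMIs, 0.946% with 10%, 3.69% with at least 2 Cd3 UMIs and 3.01% with cells thinned before the gate. The HFD share of 0.767% was 0.466% at 20%, 0 at 10%, 2.76% with no limit and 0.440% without members rich in other-type RNA. The Cd8 share in ND was 12.5% at 10% (1 of 8 cells) and 19.3% thinned, and in HFD 33.3% thinned. The Cd4 share in ND was 50% at 10% (4 of 8 cells) and 12.4% thinned. In HFD it was 40% at 20% (2 of 5 cells) and 0 thinned. With no HFD member at 10%, no gene could be compared there. The 70 higher and 136 lower genes became 46 and 216 with median of ratios scaling, which shifted all log2 ratios by 0.199. They became 18 and 29 with a minimum of 200 UMIs, 1868 and 955 with 1 UMI, and 43 and 28 with no limit, and the lower genes were 64 at 20%. Genes higher in Cd8 cells numbered 2 without the highest doublet scores, 13 with 1 UMI, 12 with no limit and 1 without other-type members. Genes higher in Cd4 cells numbered 1 at 20%, 5 without mitochondrial, haemoglobin and ribosomal genes, 0 with 200 UMIs, 194 with 1 UMI, 14 with no limit and 3 without other-type members. Cldn5 turned to -0.55 without other-type members, Fabp4 to -1.99 there and -2.60 at 20%, and Txk to 0.36 with no limit. The cause was not tested. The 2 alternatives on no limit and on other-type members were chosen after the data were seen. The 21 HFD members limit every value of that library: a gene with 3 UMIs there has an interval of over 2-fold on either side.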

Other observations

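Some genes of ND members were at or near 0 in the 21 HFD members. With at least 60 UMIs in ND and at most 3 in HFD there were 33 such genes. Dusp10, a phosphatase of stress kinases, had 145 UMIs in 70 ND members and 3 UMIs in HFD members, and was at a log2 ratio of -0.71 without the mitochondrial limit. Socs3, a brake on cytokine signals, had 96 and 2 UMIs and was at -0.90. Scgb1a1, a secreted protein of airway club cells, had 181 UMIs in 96 ND members (41.0%) and 0 in HFD members, at least 10.1-fold lower. It was found in 40.0% of ND B cells, 45.3% of ND endothelial cells and 0.213% of HFD endothelial cells. Without the limit, Retnla, S100a9, S100a8 and Cxcl2 were among the 12 lowest genes in HFD, with 98.0%, 95.7%, 93.2% and 81.5% of their ND UMIs from 1 cell.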
